A study of Mus musculus with 2 samples.

Results

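The genes described here are 36 genes that mark endothelial cells, the cells that line blood vessels, or that let those cells hold leukocytes. They were chosen by name, with earlier results of these data known. Every probe set with a member as its single gene symbol in the platform annotation was taken, 68 of the 45101 on the array. Adipose tissue came from mice of the inbred C57BL/6 strain. The high fat diet array held RNA pooled from 3 mice fed HFD32 to induce obesity, and the normal diet array held RNA pooled from 3 mice fed CE-2 as the control, both from 6 to 18 weeks of age. Neither the depot nor the sex of the animals is stated in the sources used here. Each diet was measured on 1 Affymetrix mouse expression array, so there are no replicates, the diets could not be tested against each other, and every difference compares a pair of pools.

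Endothelial cells are held together by VE-cadherin, PECAM1 and claudin 5 at their junctions, and their identity is kept by transcription factors of the ETS and SOXF families. Notch signalling, with the ligand DLL4 made in arteries and at growing tips, sets arterial fate and limits sprouting. In inflamed tissue the endothelium displays selectins, which slow leukocytes in the blood, and the ligands ICAM1 and VCAM1, which stop them by binding leukocyte integrins. Fat is a tissue rich in capillaries, and its vessels carry fatty acids and hormones to and from adipocytes.

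Signals are log2 values made by the authors with RMA, which corrects background, normalizes between arrays and summarises the probes of a probe set. A gene was represented by its brightest probe set and compared if its mean over both arrays reached 5.44, which is the median over non-control probe sets (the floor). Of the 36 members 34 passed, among 11778 genes compared of 18193 with a probe set of their own. Differences are high fat diet minus normal diet on the log2 scale, so that 0.585 corresponds to a ratio of 1.5. The only error at hand is that between probe sets of the same gene, an SD of 0.27 on the log2 scale over 5131 genes that have several above the floor, and 0.25 over the 12 members that have several. It covers the probes alone, and the number of arrays limits the precision. In bulk tissue, fewer endothelial cells and less of a transcript per cell cannot be told apart.

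Most endothelial genes had a lower signal on the high fat diet array, by small amounts. Of the 34 members compared 27 were lower and 7 higher, with a median difference of -0.29, against a median of 0 and quartiles of -0.23 and 0.23 over all genes compared. Over all genes compared 49.3% were lower and 49.9% higher. These shares are the reference for the counts of lower and higher genes in each group and list below. By at least 1.5-fold 7 members were lower (Podxl, Aplnr, Emcn, Ptprb, Vwf, Pecam1 and Ets1) and 0 higher, where 8.52% of all genes were that much lower and 8.2% that much higher. By 2-fold 0 members stood apart in either direction, against 3.29% of all genes lower and 3.28% higher. Under the lower quartile of all genes lay 20 members, and above the upper quartile lay 3. The members were chosen with earlier results of these data known, so these counts do not describe an unselected set.

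**Figure D1:**
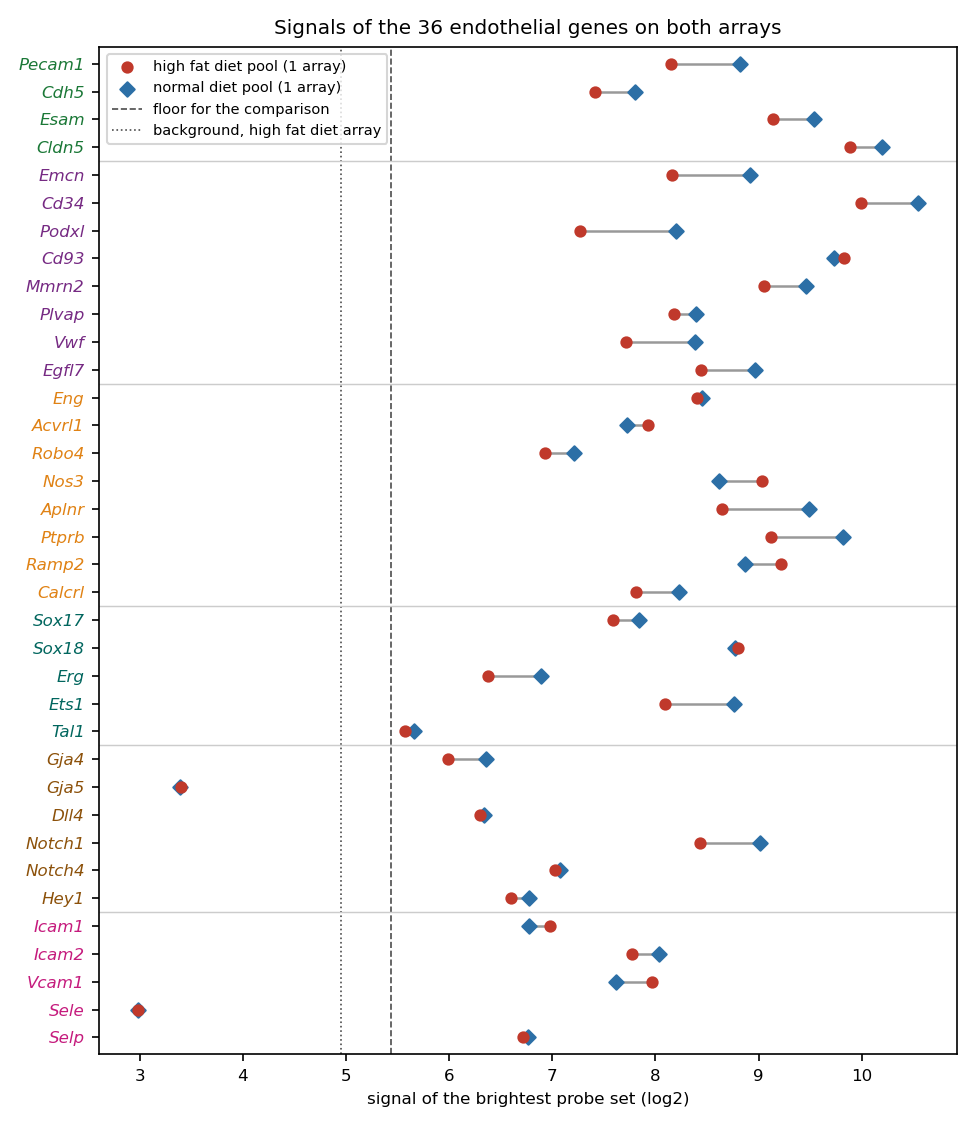
Signal (log2) of the brightest probe set of each of the 36 genes on the high fat diet array (red circles) and the normal diet array (blue diamonds), with 1 array per diet and genes grouped by role from top to bottom (junctions, surface and secreted proteins, receptors and signalling, transcription factors, arterial and Notch, leukocyte adhesion). The high fat diet signal lies left of the normal diet signal in 27 of the 34 genes right of the floor, while Gja5 and Sele lie left of the background line.

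The endothelium is well represented on both arrays. The junction genes Pecam1, Cdh5, Esam and Cldn5 lay above background, which was taken as the 95th percentile of 83 probe sets of sensory receptor genes, 4.95 on the high fat diet array and 4.92 on the normal diet array. The 2 members under it on both arrays were Gja5, which encodes an arterial connexin of gap junctions (3.40 and 3.39 on the high fat and the normal diet array), and Sele, which encodes E-selectin (2.99 on both arrays). For these no difference can be read.

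Promoters are shown for Emcn, Cd34 and Calcrl, which are among the genes lower on the high fat diet array, and for Icam1 and Sele, adhesion genes that are induced in inflamed endothelium, of which Icam1 alone was above background here. Each sequence is the 250 bases before the RefSeq start of the gene in GRCm38.p6, 5′ to 3′ on the strand of the gene. Capitals mark matches, on either strand, to the ETS forms CAGGAAG and CCGGAAG, the RBPJ form GTGGGAA, the NF-kB form GGAANTTCC, a longer NF-kB form (GG and TTTCC with 3 free bases between them), the SOX form AACAAT and the TATA box TATAAA. The windows are chr3:137340828-137341077 (plus strand) for Emcn, chr1:194938571-194938820 (plus strand) for Cd34, chr2:84425267-84425516 (minus strand) for Calcrl, chr9:21015690-21015939 (plus strand) for Icam1 and chr1:164047984-164048233 (plus strand) for Sele.
Emcn: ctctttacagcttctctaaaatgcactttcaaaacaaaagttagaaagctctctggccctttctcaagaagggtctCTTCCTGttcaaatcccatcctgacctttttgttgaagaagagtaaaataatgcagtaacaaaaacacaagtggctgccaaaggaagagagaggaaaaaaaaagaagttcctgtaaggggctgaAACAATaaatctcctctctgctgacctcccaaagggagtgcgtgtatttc
Cd34: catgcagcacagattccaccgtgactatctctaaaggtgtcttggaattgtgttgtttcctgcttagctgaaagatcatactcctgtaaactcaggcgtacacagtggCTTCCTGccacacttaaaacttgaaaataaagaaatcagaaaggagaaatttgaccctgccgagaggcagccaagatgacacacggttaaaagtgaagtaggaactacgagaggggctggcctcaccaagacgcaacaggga
Calcrl: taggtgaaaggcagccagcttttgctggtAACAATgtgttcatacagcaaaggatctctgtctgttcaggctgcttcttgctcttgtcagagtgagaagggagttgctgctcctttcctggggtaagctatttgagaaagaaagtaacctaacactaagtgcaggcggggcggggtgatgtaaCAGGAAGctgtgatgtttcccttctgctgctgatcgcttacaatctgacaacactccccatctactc
Icam1: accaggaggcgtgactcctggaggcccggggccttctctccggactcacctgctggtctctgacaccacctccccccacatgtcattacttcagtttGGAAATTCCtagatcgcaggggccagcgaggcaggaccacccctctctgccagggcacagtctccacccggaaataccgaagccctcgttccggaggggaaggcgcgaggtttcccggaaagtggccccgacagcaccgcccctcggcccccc
Sele: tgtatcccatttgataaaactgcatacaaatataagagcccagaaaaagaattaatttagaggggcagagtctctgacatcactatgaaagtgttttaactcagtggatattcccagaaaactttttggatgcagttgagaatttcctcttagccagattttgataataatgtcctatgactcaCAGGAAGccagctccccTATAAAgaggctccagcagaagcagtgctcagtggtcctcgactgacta

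RefSeq promoter entries were at hand for 17 of the 36 genes, 22 windows in all since some genes have several starts. CAGGAAG, a form bound by ETS factors such as the member ERG, was in 9 of these 22 windows, from Calcrl, Cd34, Egfl7, Emcn, Erg, Notch4, Robo4 and Sele, against 10.8% of 32851 promoter windows of the same length. It stands 174, 142, 67 and 66 bases before the start in Emcn, Cd34, Calcrl and Sele, on the opposite strand in Emcn and Cd34. AACAAT was in 3 of the 22 windows (9.42% of all), those of Calcrl, Emcn and an Erg start. GGAANTTCC was in that of Icam1, 153 bases before the start (0.813% of all), and the longer NF-kB form in that of an Egfl7 start (4.63% of all). TATAAA was found for Erg and Sele (12.4% of all), and CCGGAAG and GTGGGAA in 0 of the 22 (6.91% and 5.42% of all). A match describes these letters and not a site in use. The promoters shown were picked by name from genes with 1 promoter entry. CAGGAAG was in 8 of the 17 genes, Emcn, Cd34 and Calcrl among them, so those shown do not stand for the lower genes.

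In the high fat diet pool all 4 junction genes had lower signals on their brightest probe set. Pecam1, which encodes the adhesion protein CD31, had a signal of 8.15 on the high fat diet array and 8.82 on the normal diet array, 1.59-fold lower. Cdh5, which encodes VE-cadherin, the adhesive protein of endothelial junctions, had 7.41 and 7.80, a difference of -0.39. Its dimmer probe set went the other way, with 5.84 on the high fat diet array and 5.31 on the normal diet array. Esam, an adhesion protein of endothelial tight junctions, had 9.14 and 9.53, also a difference of -0.39. Cldn5, the claudin of endothelial tight junctions, had 9.89 and 10.19, 1.23-fold lower. The group median was -0.39, and in Cdh5 the direction depends on the probe set.

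Surface and secreted proteins had a median of -0.54, with 7 of 8 lower. By at least 1.5-fold 3 of them were lower, where 8.52% of all genes compared were. Podxl, a sialomucin of the luminal surface that mesothelium also makes, had the lowest difference of all members, with 7.27 on the high fat diet array and 8.20 on the normal diet array, a difference of -0.93. The dimmer probe set of Podxl, under the floor, had a difference of 0.11. Emcn, which encodes the capillary and venous sialomucin endomucin, had 8.16 and 8.92, 1.69-fold lower. Its difference lay under those of all but 5.48% of the genes compared.

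Vwf, which encodes von Willebrand factor, the clotting protein that endothelium and platelets store, had 7.71 on the high fat diet array and 8.39 on the normal diet array, 1.59-fold lower. Cd34, a sialomucin of capillaries and also of adipose progenitor cells, had 9.99 and 10.55, a difference of -0.56. Egfl7, a secreted protein of the vessel wall, was lower on all 4 of its probe sets, from -0.53 to -0.15. Those of Mmrn2, an endothelial matrix protein that binds CD93, ran from -0.40 to -0.11, again 4 of 4 lower.

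Plvap, which forms the diaphragms of capillary fenestrae and caveolae, had 8.18 on the high fat diet array and 8.39 on the normal diet array, a difference of -0.21 and so within the SD between probe sets. Cd93, the receptor that binds MMRN2 and is also made by myeloid cells, was the exception in this group. On its 2 probe sets above the floor Cd93 had differences of 0.09 and 0.15, while its 3 dim ones under the floor had 0.30 to 0.54.

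**Figure D2:**
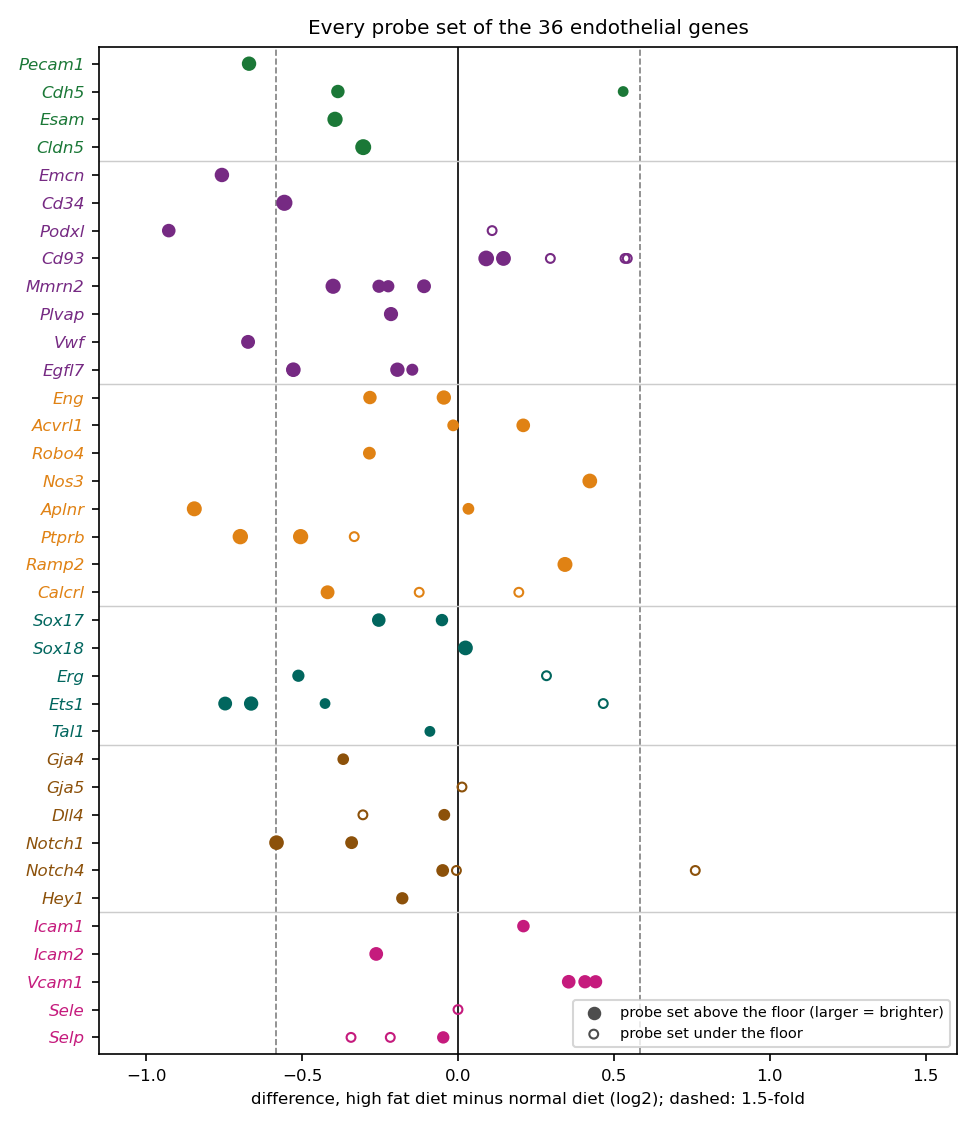
Difference (log2, high fat diet minus normal diet) of each of the 68 probe sets of the 36 genes, filled where the mean of both arrays is at or above the floor (larger points are brighter) and open where it is under it. Dashed lines mark 1.5-fold. The 3 probe sets of Vcam1 and the 4 of Egfl7 and of Mmrn2 each lie on the same side of 0, while Cdh5, Podxl, Acvrl1, Aplnr, Calcrl, Erg, Ets1 and Notch4 have a dimmer probe set on the other side from their brightest.

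Receptors and signalling genes spread the most, with 5 of 8 lower, 3 higher and a median of -0.16. Aplnr, the receptor for apelin, had 8.64 on the high fat diet array and 9.49 on the normal diet array, a difference of -0.85, but its dimmer probe set, also above the floor, differed by 0.03. Ptprb encodes VE-PTP, a phosphatase that restrains the angiopoietin receptor TIE2. It had 9.12 and 9.82, 1.62-fold lower, and its next probe set gave 9.06 and 9.57, a difference of -0.50. Robo4, a receptor that stabilises vessels, had 6.93 on the high fat diet array and 7.21 on the normal diet array, 1.22-fold lower.

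Nos3, which encodes the endothelial nitric oxide synthase, had the highest difference of the 34 members. Its signal was 9.03 on the high fat diet array and 8.61 on the normal diet array, 1.34-fold higher, above 87.2% of the genes compared. Nos3 and Pecam1, the second also carried by leukocytes and platelets, lay 1.09 apart on the log2 scale. Differences of opposite sign were also seen for the receptor for adrenomedullin, which is formed by CALCRL together with RAMP2. Ramp2 had 9.21 and 8.87, a difference of 0.34, whereas Calcrl had 7.81 on the high fat diet array and 8.22 on the normal diet array, a difference of -0.42. These lay 0.76 apart. Over 3105 genes with 2 probe sets above the floor, the gap between both had a 95th percentile of 0.70. With 1 array per diet, whether the receptor genes differ from each other was not tested. The dim probe sets of Calcrl, under the floor, had differences of -0.12 and 0.195. Both probe sets that Ramp2 shares with Vps25, which were not used for the gene, had smaller positive differences of 0.13 and 0.15.

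Endoglin and ALK1, a co-receptor and a receptor for BMP9 that act together in endothelium, stayed near 0. Eng, for endoglin, had 8.41 on the high fat diet array and 8.45 on the normal diet array, and -0.28 on its dimmer probe set. Acvrl1, for ALK1, had 7.93 and 7.72, a difference of 0.21, and -0.02 on its dimmer probe set. These values are within, or close to, the SD between probe sets.

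The transcription factors had a median of -0.25, 4 of 5 being lower. Of the ETS family, Ets1, which lymphocytes also express, had 8.09 on the high fat diet array and 8.76 on the normal diet array, 1.58-fold lower. All 3 of its probe sets above the floor were lower, from -0.75 to -0.43, while a dim one under the floor had 0.47. Erg, the ETS factor that maintains endothelial identity, had 6.37 and 6.89, a difference of -0.51, while its dimmer probe set, under the floor, had 0.28. Of the SOXF family, Sox18 had 8.80 on the high fat diet array and 8.78 on the normal diet array, and Sox17, the factor of arterial endothelium, had 7.59 and 7.84, a difference of -0.25. Tal1, a factor of blood and endothelial development, was dim on both arrays, with 5.57 and 5.66.

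Arterial and Notch genes were lower in 5 of the 5 compared, where 49.3% of all genes were, with a median of -0.18. Of these 5, 0 reached 1.5-fold, where 8.52% of all genes were that much lower. With 5 genes that count is too small to read as a difference from all genes. Notch1, a receptor that many cell types carry, came closest, with 8.43 on the high fat diet array and 9.01 on the normal diet array, a difference of -0.582, and -0.34 on its other probe set. Notch4, the receptor that is largely endothelial, had 7.02 and 7.07, a difference of -0.05. The ligand gene Dll4 had 6.29 on the high fat diet array and 6.34 on the normal diet array, a difference of -0.04. The other probe set of Dll4, just under the floor, had 5.27 and 5.58, a difference of -0.30. Hey1, a target gene of Notch in arteries, had 6.60 and 6.78, and Gja4, which encodes another arterial connexin, had 5.99 and 6.35, 1.29-fold lower. On their brightest probe sets Notch4 and Dll4 thus lay within the SD between probe sets, and Notch1 beyond it. That SD covers the probes alone, so it does not separate changed genes from unchanged ones.

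Leukocyte adhesion genes went both ways, 2 higher and 2 lower of 4 compared, with a median of 0.08. In either direction 0 of them reached 1.5-fold, where 8.52% of all genes were that much lower and 8.2% higher. Vcam1, the ligand for the integrin alpha 4 beta 1, had 7.97 on the high fat diet array and 7.62 on the normal diet array. All 3 probe sets of Vcam1 were higher, by 0.35, 0.41 and 0.44. Icam1, the inducible ligand for beta 2 integrins whose promoter is shown above with its GGAANTTCC match, had 6.98 and 6.77, a difference of 0.21. Icam2, which resting endothelium displays, had 7.77 on the high fat diet array and 8.04 on the normal diet array, a difference of -0.26. Selp, for the P-selectin that endothelium and platelets store in granules, had 6.71 and 6.76. Stromal cells and macrophages also express Vcam1 and Icam1, and of 10 macrophage markers 10 had a positive difference, with a median of 1.54, among them Adgre1 at 1.65 (10.53 and 8.88), Cd68 at 2.29, Ms4a7 at 1.83 and Cd14, the lowest, at 0.29. Their part in the values of Vcam1 and Icam1 was not tested.

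**Figure D3:**
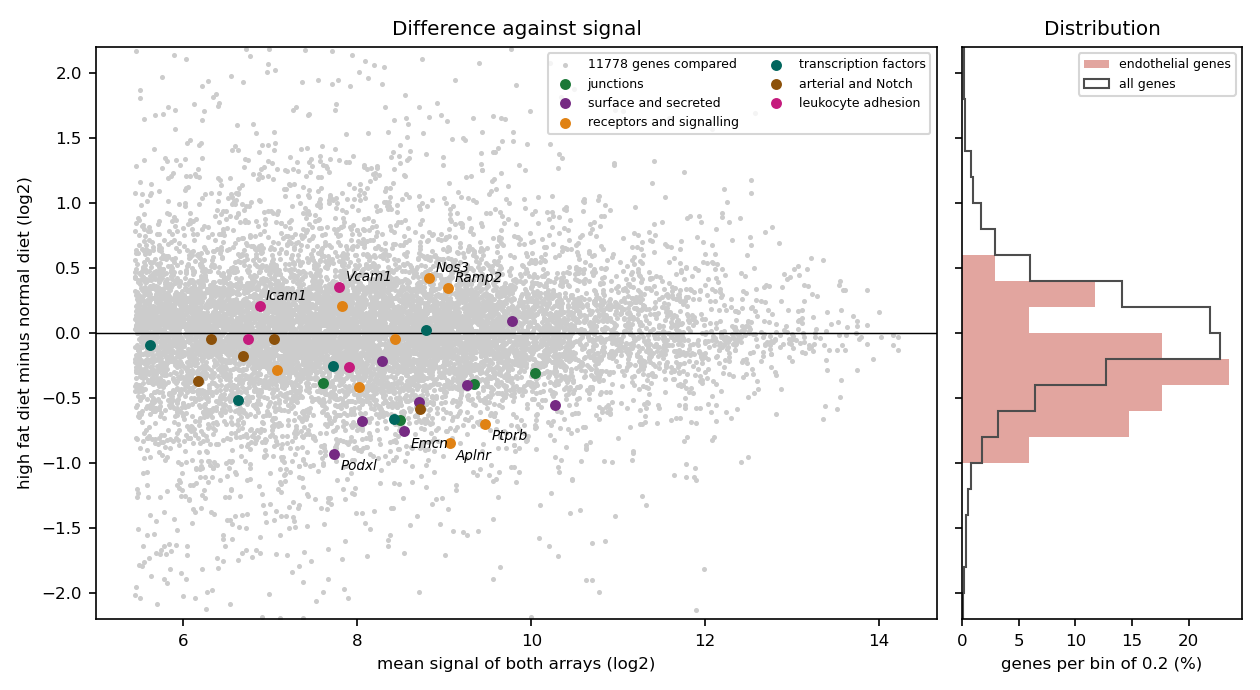
Left, difference (log2, high fat diet minus normal diet) against the mean signal of both arrays (log2) for the 11778 genes compared (grey) and the 34 endothelial genes (coloured by role), with 162 genes beyond 2.2 in either direction not drawn. Right, the share of genes in bins of 0.2 for the endothelial genes (filled) and all genes (line). The endothelial genes lie mostly under 0, with a median of -0.29 against 0, and none beyond 1 in either direction.

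Several probe sets of the same gene read the same pooled RNA on the same arrays, so they repeat neither the diet nor the animals. Of 12 members with more than 1 probe set above the floor, 7 were lower on every such probe set (Mmrn2, Egfl7, Eng, Ptprb, Sox17, Ets1 and Notch1), where 29.6% of all genes with several were. Cd93 and Vcam1 were higher on every such probe set, where 36.1% of all genes were. Cdh5, Acvrl1 and Aplnr had probe sets on both sides of 0. Dim probe sets tended to sit higher than bright ones of the same gene. In 14 of 18 members with several probe sets the dimmest lay above the brightest, with medians of -0.01 for the dimmest and -0.39 for the brightest, and in 9 of the 18 the dimmest was under the floor. Over 7219 genes with several probe sets the dimmest lay above the brightest in 58.7%, with medians of 0.07 and -0.01.

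Other genes of the endothelium were mostly lower as well. Of 24 further endothelial genes 23 were compared, 22 of them lower on the high fat diet array and 1 higher, with a median of -0.45. By at least 1.5-fold 6 were lower and 0 higher, where 8.52% of all genes compared were that much lower and 8.2% that much higher. Kdr, for the main VEGF receptor, had 8.34 on the high fat diet array and 8.98 on the normal diet array, 1.56-fold lower. The angiopoietin receptor Tek had a difference of -0.58 and its relative Tie1 one of -0.48. Sox7, the remaining SOXF factor, had 7.04 and 8.35, 2.49-fold lower, and Aqp1, a water channel of capillaries, was 1.75-fold lower. Cd300lg, a protein of capillary endothelium, was the exception with 0.13. Part of this list was already known to be lower from earlier work on these arrays, so it is no independent support.

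Venous and lymphatic endothelial genes had a median of -0.23, with 6 of 8 lower. Mmrn1, of lymphatic endothelium and platelets, had 6.55 on the high fat diet array and 7.71 on the normal diet array, 2.24-fold lower, and Nr2f2, the factor of venous fate, was 2.09-fold lower. Lyve1, of lymphatic vessels and some macrophages, had a difference of -0.32, and Ackr1, of venules, 0.12. Prox1, which defines lymphatic endothelium, was under background on both arrays.

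The rest of the Notch pathway had a median of -0.24 over 14 genes, 10 lower and 4 higher. The ligand gene Dll1 was 1.68-fold lower, and Efnb2, of arterial endothelium, had -0.58. The glycosyltransferase gene Mfng, whose product modifies Notch receptors, had 0.51.

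Several leukocyte receptors for the adhesion proteins had larger differences than the adhesion genes. All 10 compared had positive differences, and their median was 0.44. By at least 1.5-fold 4 of them were higher, where 8.2% of all genes compared were. Itgb2, the beta 2 chain that binds ICAM1, had 10.84 on the high fat diet array and 9.13 on the normal diet array, a difference of 1.71. Cd44, which binds hyaluronan and selectins, had 1.48, while Itgb1, carried by nearly all cells, had 0.003. For NF-kB and the cytokines that induce adhesion genes, 6 genes were compared and their median was 0.11. Tnf had 5.73 and 5.20, a difference of 0.53, close to the floor, Relb had 0.23, and the inhibitor gene Nfkbia had -0.30.

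**Figure D4:**
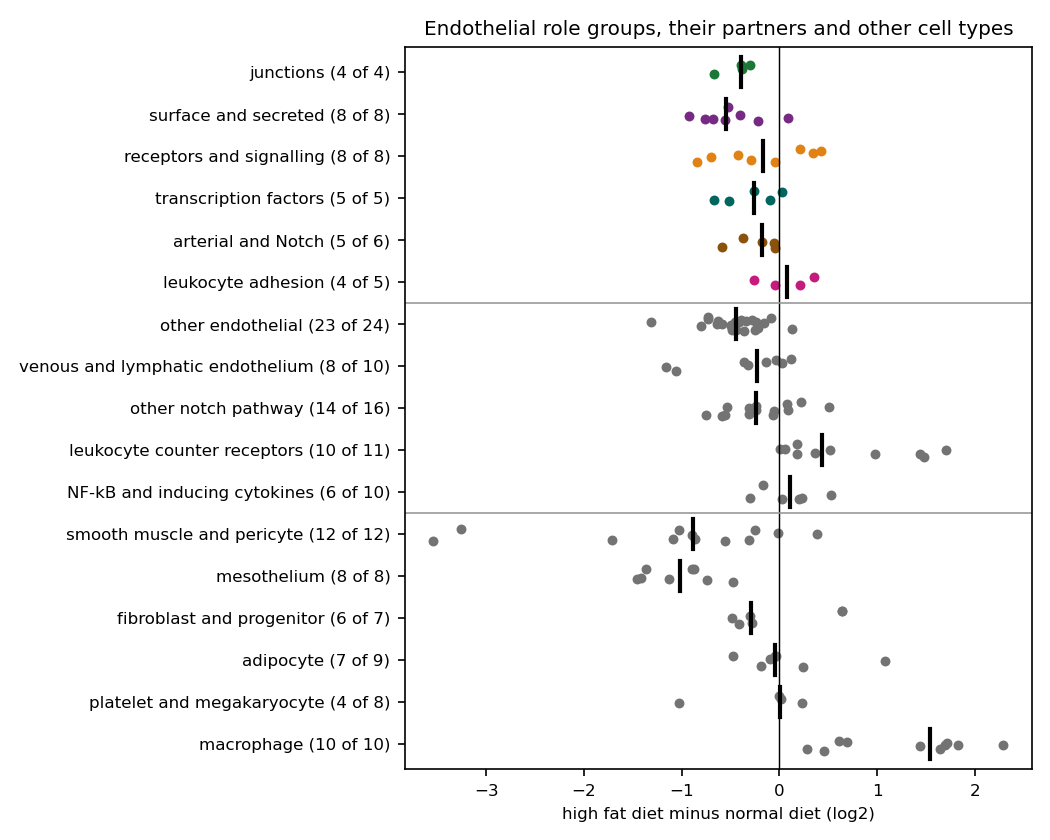
Difference (log2, high fat diet minus normal diet) of each gene compared in the 6 endothelial role groups (coloured), in related lists (middle block) and in marker lists of other cells (bottom block), with the median as a black bar. Numbers in brackets give the genes compared of those listed. The leukocyte adhesion median is 0.08 and those of the other role groups lie under 0, and the macrophage and the smooth muscle and pericyte lists spread much further.

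Markers of other cells differed between the same arrays, and their part in the endothelial values was not tested. Smooth muscle and pericyte markers, from the cells that wrap vessels, had a median of -0.88. Of these 12 genes 11 were lower, where 49.3% of all genes compared were. Cnn1 and Myh11, of contractile smooth muscle, had -3.54 and -3.25, whereas Acta2 had -0.55. Cspg4, of pericytes, was the exception in the list with 0.38. Other pericyte markers of the list were lower, with Rgs5 at -1.09, Kcnj8 at -1.02 and Abcc9 at -0.90. Notch3 had -0.31, Pdgfrb -0.25 and Mcam -0.01. Mesothelium markers were lower in 8 of 8, where 49.3% of all genes compared were. Their median was -1.01, from -1.46 for Krt8 and -1.41 for Krt18 to -0.47 for Msln. Fibroblast and progenitor markers had a median of -0.29, with Pdgfra at -0.49, Dpp4 at -0.41 and Lum at 0.65. Adipocyte markers had -0.05, with Adipoq at -0.09, Pparg at -0.47, Lipe at -0.19 and Lep at 1.08. The 4 platelet genes compared had a median of 0.01, with Pf4 at -0.003, Itga2b at 0.02, Gp1bb at 0.23 and Ppbp at -1.02, beside the values of Vwf and Selp. Summed linear signals of the marker lists were also taken as a ratio, high fat diet array over normal diet array. This ratio was 0.523 for smooth muscle and pericytes, 0.501 for mesothelium, 0.978 for platelets and 2.16 for macrophages. It was 0.801 for the 36 endothelial genes. Such a sum is led by the brightest probe sets, and does not measure the amount of a cell type. For platelets the brightest was Pf4, with 10.57 on the high fat diet array and 10.58 on the normal diet array.

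Hepatocyte transcripts had a median of -5.64 over 7 genes, among them Alb (7.91 and 13.15), Serpina1c and Ttr. Liver has an endothelium of its own, so markers of liver sinusoidal endothelium were set beside them, a list added after the hepatocyte values were seen. On the normal diet array, where hepatocyte transcripts were high, Stab2 had 4.91, Clec4g 4.98, Oit3 3.84, and Dnase1l3 4.41, with Clec1b between the last pair, all at or under the background of 4.92 but for Clec4g just above it. On the high fat diet array Stab2 had 5.98 and Clec4g 5.21, and the other 3 lay under background. Whether these probe sets detect liver endothelium is not known here, and the list covers no other tissue. Any part of liver or other tissue in the endothelial values was not tested.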

How the data were processed

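RNA from adipose tissue was hybridised to 1 Affymetrix array per diet, each a pool of 3 animals, per the labels and the design text. The deposited values are log2 signals that the authors made with RMA, per the submitters' processing notes; no version, setting or genome build is given in the sources used here. That the scale is log2 was read off the values (2.06 to 14.21 on the high fat diet array, 2.04 to 14.28 on the normal diet array), whose sorted columns differ nowhere by more than 0.14, so a shift in total RNA cannot be seen. Names came from GEO's annotation of the platform: 34945 non-control probe sets had 1 symbol, 932 had several and 9160 had none, and 64 controls were left out. The gene IDs of all 36 members gave the same symbol in RefSeq. Some genes of the other lists were not analysed here.

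Differences, medians and counts were computed with Python 3.11.15, numpy 2.4.6 and pandas 2.3.3. The count at 2-fold and the median were tested on simulated data. The planted differences there were larger than the median of the members, and the noise was smaller than the spread over all genes. The count at 1.5-fold was not tested in this way. The members and lists were chosen with earlier results of these data known. All members are named, and of each other list the 2 genes farthest in the direction of its median, the 1 farthest the other way and defining markers. Further pericyte markers are named beside Cspg4. Of the sinusoidal list the 5 genes with a probe set are named. Alternatives were the floor, the choice of probe set, probe sets matching several transcripts, signals under background and recentring by signal in 20 bins.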

Additional observations from a re-analysis of the deposited data

How the results depend on the processing

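With 1 array per diet, no array could be left out. No paired analysis was possible because each diet has 1 array and no result comes from a test. The median of the members ran from -0.39 (floor at the 75th percentile) to -0.25 over the alternatives and kept its sign, and the counts at 2-fold and of members at least 1.5-fold higher stayed at 0 in each. The number at least 1.5-fold lower was 7, but 3 of 30 genes with the median of all probe sets of a gene, where 7.42% of all genes were that much lower, and 4 of 26 genes (8.52% of all genes) without 8 members that other cells also express (Cd34, Podxl, Vcam1, Icam1, Ets1, Notch1, Selp and Vwf), and 3 of 24 when Pecam1 and Cd93, which blood cells carry too, were also left out, both settings chosen after seeing the data. Taking the mean of the probe sets above the floor gave 6, where 7.98% of all genes were that much lower. With the median of all probe sets Cdh5 had 0.07, Podxl -0.41, Aplnr -0.41 and Erg -0.11, and the mean gave the same values for Cdh5 and Aplnr. With probe sets of names ending in x or s left out Egfl7 had -0.19. With the floor at the 75th percentile the arterial and Notch median was -0.58 on 1 gene, that of the leukocyte receptors 0.98 and that of platelet genes -0.0029 on 1 gene, a change of sign. The median of all probe sets gave 0.98 for leukocyte receptors, 1.07 for macrophages and -0.0029 for platelet genes, and with signals under background raised to it hepatocyte genes had -5.35. The causes were not tested. The remaining 137 medians of lists and 252 values of single members moved by less than 0.27, the SD between probe sets. That SD exceeds several list medians, so a median could come near 0 and still count as unmoved. With the floor at the 75th percentile the medians of venous and lymphatic, receptor and other Notch genes were -0.04, -0.05 and -0.05. Leaving out probe sets matching several transcripts gave -0.09 for transcription factors. The leukocyte adhesion median ran from 0 without a floor to 0.21 with the median of all probe sets. Signal over background limits Gja5 and Sele, and Tal1, Gja4 and Dll4 lie near the floor.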

Other observations

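The endothelial genes were split by their mean signal on both arrays, a split made after seeing the data. The 17 brightest members compared, with mean signals from 8.29 to 10.27, had a median difference of -0.40, with 13 lower, 5 of these by 1.5-fold or more. The 17 dimmest, from 5.62 to 8.05, had a median of -0.25, with 14 lower, 2 of these by 1.5-fold or more. Of all genes compared 8.52% were that much lower, and 6.49% with the floor at the 75th percentile. Shares over all genes were not computed for the same ranges of signal. These values describe the pair of arrays, and signals of different probe sets do not rank the genes by abundance.

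A dim probe set of Notch4, with 4.67 on the high fat diet array and 3.91 on the normal diet array, had the highest difference of all 68 probe sets, 0.76, though both signals lie under background. The dimmer probe set of Cdh5 is the only member probe set above the floor with a difference over 0.5.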
